A study of Mus musculus with 2 samples.

Results

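The 150 named small nucleolar and small Cajal body RNA genes among the 55536 genes of the tables are described here. They were chosen by symbol alone, as genes whose symbol starts with Snora, Snord or Scarna followed by a digit, with no filter on expression. There were 42 H/ACA genes (Snora), 99 C/D genes (Snord) and 9 Cajal body genes (Scarna). The symbols Snord80, Snora43 and Snora16a, are each carried by a pair of gene records, which gives 147 distinct symbols. Snord43 is annotated as a microRNA gene and was kept because the choice was by symbol. A further 1409 genes annotated as small nucleolar or Cajal body RNA carry other symbols and serve here for comparison only.

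RNA of the nucleoplasm was sequenced from bone marrow-derived macrophages of C57BL/6J mice after ribosomal RNA had been depleted. Both libraries belong to 1 group. The cells had received Lipid A, the part of lipopolysaccharide that Toll-like receptor 4 binds, at 100 ng/ml for 12 h, had been washed free of it for 12 h and had then received 100 ng/ml again for 30 min. Biological replicate 1 started from 1 µg and replicate 2 from 500 ng of RNA, and the size range is given for both as 250 to 400, with no unit. The biosamples are separate and the donor identifier is the same, and nothing in the labels says that separate mice or cultures were used, so the spread between the replicates may be technical. The labels hold no unstimulated cells and no other fraction.

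Small nucleolar RNAs guide enzymes to ribosomal and spliceosomal RNA by base pairing. C/D RNAs carry the boxes C and D and direct methylation of the ribose by fibrillarin. H/ACA RNAs fold into hairpins that end in an ACA box and direct the change of uridine to pseudouridine by dyskerin. Cajal body RNAs do the same for spliceosomal small nuclear RNAs, and some hold both kinds of domain. A few, such as U3, U8, U17 and U22, are needed for the cutting of ribosomal RNA precursors rather than for base modification. In mammals most are trimmed out of the introns of host genes, many of which encode ribosomal proteins or other parts of the translation machinery, and mature C/D and H/ACA RNAs gather in the nucleolus.

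The sequences of 12 members are printed because the results turn on them. The first set holds members with many counts. Capitals mark the letters TGATGA (box C without its first base) where they start in the first 20 bases, CTGA (box D) in the last 15 bases of C/D and Cajal body RNAs, and ACA in the last 8 bases of H/ACA RNAs. Sequences are the transcripts of GENCODE M21 on GRCm38 (mm10), written as DNA. Scarna10 and Scarna2 are long, and only their ends are given.
Scarna10, first 100 bases: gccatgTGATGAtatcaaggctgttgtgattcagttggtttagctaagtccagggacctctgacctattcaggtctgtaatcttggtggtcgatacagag
Scarna10, last 100 bases: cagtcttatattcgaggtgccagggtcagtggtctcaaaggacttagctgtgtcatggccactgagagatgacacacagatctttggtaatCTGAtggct
Scarna2, last 100 bases: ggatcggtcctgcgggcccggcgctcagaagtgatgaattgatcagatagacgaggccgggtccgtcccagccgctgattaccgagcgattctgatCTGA
Snora73a: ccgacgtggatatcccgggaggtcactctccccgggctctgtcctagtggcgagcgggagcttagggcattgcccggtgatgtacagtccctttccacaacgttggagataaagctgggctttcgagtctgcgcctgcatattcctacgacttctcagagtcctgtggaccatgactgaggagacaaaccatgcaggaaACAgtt
Snora73b: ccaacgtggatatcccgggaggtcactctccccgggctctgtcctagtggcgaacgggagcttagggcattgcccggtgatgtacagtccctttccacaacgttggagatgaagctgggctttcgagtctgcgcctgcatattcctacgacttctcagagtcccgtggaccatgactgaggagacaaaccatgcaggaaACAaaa
Snord17: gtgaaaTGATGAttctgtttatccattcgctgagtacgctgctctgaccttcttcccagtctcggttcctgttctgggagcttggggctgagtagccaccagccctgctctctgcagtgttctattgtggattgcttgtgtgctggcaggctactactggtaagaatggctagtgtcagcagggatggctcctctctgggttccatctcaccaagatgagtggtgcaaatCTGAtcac
Snord22: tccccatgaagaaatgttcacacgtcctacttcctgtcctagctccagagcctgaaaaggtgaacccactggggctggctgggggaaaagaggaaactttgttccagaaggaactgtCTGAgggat
Snord15a: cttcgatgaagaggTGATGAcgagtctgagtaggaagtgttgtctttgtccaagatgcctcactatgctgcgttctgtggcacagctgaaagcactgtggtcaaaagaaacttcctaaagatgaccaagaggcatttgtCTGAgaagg
Snord15b: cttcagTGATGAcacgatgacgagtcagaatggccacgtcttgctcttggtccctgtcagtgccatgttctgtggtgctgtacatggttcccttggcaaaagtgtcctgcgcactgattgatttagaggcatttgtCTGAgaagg

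Scarna10 lies at chr6:125186359-125186683, minus strand. Scarna2 lies at chr3:108554338-108554751, minus strand. Snora73a lies at chr4:132352775-132352979, minus strand. Snora73b lies at chr4:132352322-132352526, minus strand. Snord17 lies at chr2:144265979-144266216, minus strand. Snord22 lies at chr19:8725866-8725991, plus strand. Snord15a lies at chr7:99482785-99482932, minus strand. Snord15b lies at chr7:99479563-99479707, minus strand. Scarna10 overlaps an annotated exon of Ncapd2, a condensin gene. Both Snora73 copies overlap exons of the noncoding gene Snhg3, and Snord22 overlaps an exon of the noncoding gene Snhg1. Snord17 lies in an intron of Snx5, and the pair of Snord15 genes lies in Rps3, a ribosomal protein gene, where Snord15b overlaps an annotated exon. Scarna2 lies in no other annotated gene.

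The second set holds members with 0 or 1 alignment-based counts in each library. Snord89, Snora31 and Snord118 were chosen for printing after their values had been seen. Snord116l1 stands for the repeated Snord116 copies.
Snord89: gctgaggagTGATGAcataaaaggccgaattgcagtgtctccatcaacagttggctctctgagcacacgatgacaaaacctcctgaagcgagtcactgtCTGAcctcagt
Snora31: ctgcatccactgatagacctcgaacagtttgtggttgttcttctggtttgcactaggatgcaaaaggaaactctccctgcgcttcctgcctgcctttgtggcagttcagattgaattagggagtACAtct
Snord118: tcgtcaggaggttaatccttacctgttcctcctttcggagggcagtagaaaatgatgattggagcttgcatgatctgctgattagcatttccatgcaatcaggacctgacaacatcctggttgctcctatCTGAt
Snord116l1: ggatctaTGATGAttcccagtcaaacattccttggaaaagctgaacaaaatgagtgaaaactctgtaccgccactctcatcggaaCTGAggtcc

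Snord89 lies at chr1:39548745-39548854, minus strand. Snora31 lies at chr14:75847905-75848034, plus strand. Snord118 lies at chr11:69073427-69073561, plus strand. Snord116l1 lies at chr7:59894620-59894713, minus strand. Snord89 and Snora31 lie in introns of Gm15832 and Tpt1, and Snord118, the U8 RNA, lies in no other annotated gene. Snord116l1 lies in Snhg14.

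The letters of the boxes followed the classes. TGATGA and CTGA, each at its end as above, stood in 68 of 99 C/D genes (68.7%), in no H/ACA gene, in 4 of 9 Cajal body genes and in 0.127% of 18942 other annotated transcripts of 64 to 414 bases. ACA lay in the last 8 bases of 40 of 42 H/ACA genes (95.2%), against 7.07% of C/D genes and 9.97% of the other transcripts. It lay exactly 3 bases before the end in 83.3% of H/ACA genes and in no C/D gene. Only the transcribed strand was searched, and the motifs CTGA and TGATGA overlap each other by the letters TGA. Of the 31 C/D genes without both boxes in these letters, which include Snord22, Snord118, Snord13 and Snord71, 15 had read-based counts in both libraries. A missing match means only that these exact letters are not in that window.

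Length differed between the classes. C/D genes were the shortest, from 64 bases (Snord37) to 238 (Snord17) with a median of 84. H/ACA genes ran from 121 (Snora26) to 205 (both Snora73 copies) with a median of 132.5. Cajal body genes were the most spread, from 70 (Scarna9) to 414 (Scarna2) with a median of 140.

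Each library has an alignment-based and a read-based table, and the members differ between them. The alignment-based tables held 23846021 and 20675305 gene counts in replicates 1 and 2, so that the upper limit for a gene listed at 0, taken as 3 counts, is 0.126 and 0.145 CPM, counts scaled to library size. The read-based tables held 33095394 and 33056247. Intervals and limits given here cover counting error only. As a check of the label, all 8 macrophage markers reached 1 TPM, the length-normalised level, in each library, while the 5 T and NK cell markers were all listed at 0. No marker of B cells, neutrophils, fibroblasts or erythroid cells reached 1 in both. Mitochondrial genes held 2.91% and 6.91% of gene counts, so levels may not be of nuclear RNA alone.

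Of the 150 members, 16 (10.7%) had an alignment-based count of 1 or more in both libraries, against 34.3% of all 55536 genes and 2.84% of the other small nucleolar and Cajal body RNA genes. These were 8 of 42 H/ACA genes, 4 of 99 C/D genes and 4 of 9 Cajal body genes. The read-based table gave counts in both libraries for 69 members (46%), against 51.6% of all genes. These were 22 H/ACA, 38 C/D and all 9 Cajal body genes. All 16 were among the 69. A further 53 members had counts in both libraries in the read-based table only, 81 did so in neither table, and 55 were at 0 in both libraries of both tables.

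Alignment-based counts moved with annotated length. Of the 89 members of 64 to 99 bases none had alignment-based counts in both libraries, and 28 had read-based counts. At 100 to 130 bases the numbers were 2 and 13 of 21, at 131 to 199 bases 7 and 21 of 33, and at 200 to 414 bases 7 and 7 of 7. Other genes of the same lengths had alignment-based counts in both libraries in 0 of 1491, 0 of 2200, 40 of 1174 and 492 of 5851 cases. Their read-based shares were 25.5%, 22.2%, 18.5% and 20.4%, with no rise with length, against 31.5%, 61.9%, 63.6% and 100% of the members. In the alignment-based table the members with counts had a median length of 190 bases and the others 91.5, and by read-based counts these medians were 111 and 90. The part of length in these counts was not tested.

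**Figure D1:**
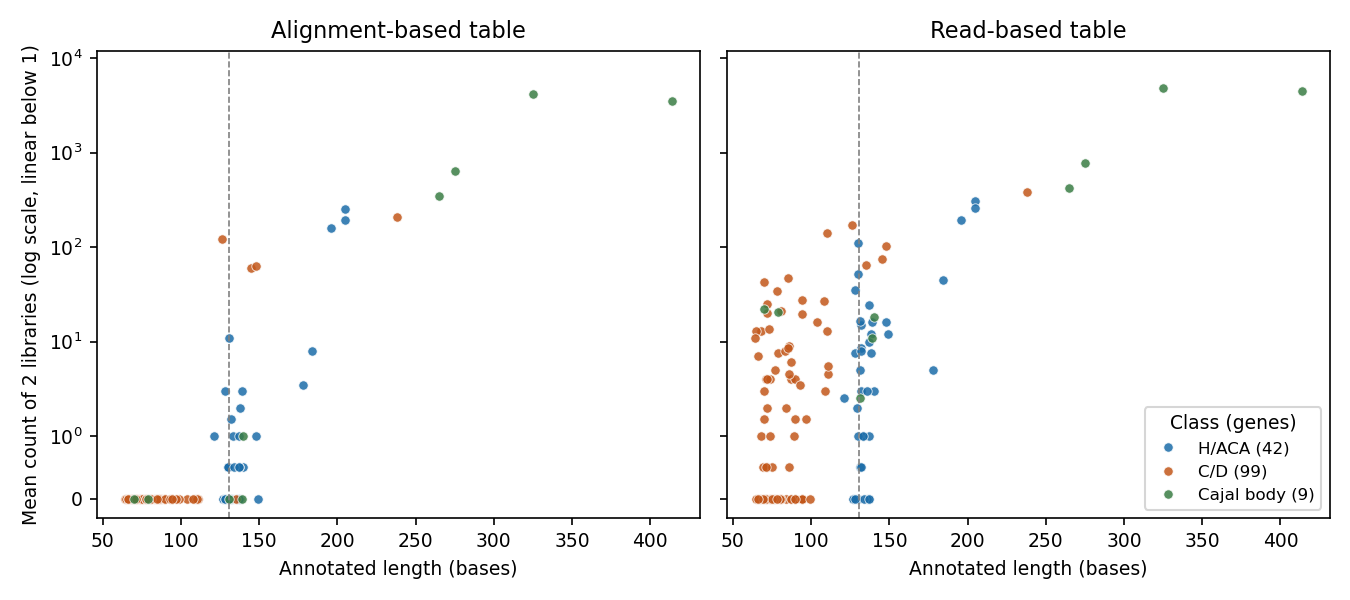
Mean count of 2 libraries (vertical axis, log scale and linear below 1) against annotated length in bases for the 150 members, 1 point per gene, coloured by class, in the alignment-based (left) and read-based (right) table. The dashed line stands between 130 and 131 bases. Left of the line 2 members had alignment-based counts in both libraries, against 28 of 89 (64 to 99 bases) and 13 of 21 (100 to 130 bases) by reads.

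The deposited effective length, the number of positions where a fragment could start, was 0 for every member of 130 bases or fewer in replicate 1 (110 members) and of 131 or fewer in replicate 2 (114 members). Where it is 0 the deposited TPM is 0 whatever the count. Snord22, which encodes the U22 RNA and is 126 bases long, had 221 and 20 counts in replicates 1 and 2 and a TPM of 0 in both. Snora78 had 5 and 1 counts, Snora26 had 2 and 0 and Snora61 had 1 and 0, all with a TPM of 0. Just above the limit a single count weighs heavily. In replicate 1 the effective length of Snora68 was 1.06 bases and 1 count was worth a TPM of 24.2, against 0.139 for Scarna2. TPM of members is therefore given beside CPM per kilobase of annotated length (called length-scaled CPM here) and beside read-based TPM, which rests on effective lengths of at least 14.97 and 14.95 bases in replicates 1 and 2.

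The Cajal body genes held most of the counts of the members. Scarna10, the U85 RNA with both C/D and H/ACA domains, had 6583 counts in replicate 1 and 1794 in replicate 2, and Scarna2, a guide for the U2 small nuclear RNA with a promoter of its own, had 4900 and 2186. Together they held 77.6% and 82.5% of all member counts. Scarna13, in the noncoding gene Snhg10, had 813 and 461 counts, and Scarna6, in an intron of Atg16l1, had 589 and 112. The other 5 were near or at 0 by alignment. Scarna3a had 2 and 0 counts there, and Scarna3b, Scarna8, Scarna9 and Scarna17 had 0 in both. By reads they had counts in both libraries, 19 and 17 for Scarna3a, 30 and 14 for Scarna9, 26 and 15 for Scarna17, 18 and 4 for Scarna3b and 1 and 4 for Scarna8. Scarna3a and Scarna3b are 85.7% identical over 140 aligned positions, so reads may be shared between them. Host genes had fewer counts than some of these members and more than others. Ncapd2, which holds Scarna10, had 199 and 152 and Snhg10 had 3 and 1, while Atg16l1, which holds Scarna6, had 1859 and 1169. These counts are not scaled for length, and by TPM Atg16l1 stood at 17.9 and 15.46, against 277.88 and 68.29 for Scarna6.

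Among H/ACA genes the counts lay with 3 long members. Snora73b had 464 and 37 counts and Snora73a 346 and 46, both encoding the U17 RNA that takes part in processing of the 18S ribosomal RNA. Snora74a, the U19 RNA, had 269 and 47. Snora68 had 22 in replicate 1 and 0 in replicate 2. Other members were lower, with Snora23 at 15 and 1, Snora81 at 7 and 0, Snora43 at 2 and 4 and Snora17 at 1 and 2. Of the 42 H/ACA genes 21 had a count in neither library. Both Snora73 copies are 205 bases long and 96.6% identical, with no gaps and 7 substitutions, G3A, G54A, A111G, T164C, G203A, T204A and T205A, counted from 1 at the 5′ end with the base of Snora73a first. A read that covers none of these positions fits both copies, and how counts are split between them is uncertain.

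Only 4 C/D genes had alignment-based counts. Snord17, the longest, had 349 and 70 counts. Snord22 had 221 and 20. Snord15a and Snord15b, both U15 RNAs in Rps3 and 65.6% identical, had 101 and 25 and 100 and 20. Their hosts had more counts, 4920 and 3920 for Snx5, 455 and 424 for Snhg1 and 850 and 745 for Rps3. These counts are not scaled for length. By TPM Rps3 stood at 14.85 and 16.88, against 862 and 309 for Snord15a and 995 and 290 for Snord15b. The Snord15 values rest on effective lengths of 2.47 to 3.02 bases. Snx5 stood at 85.05 and 92.39, against 243.69 and 63.54 for Snord17, and Snord22 has no TPM to compare. The other 95 C/D genes had a count of 0 in both libraries.

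**Figure D2:**
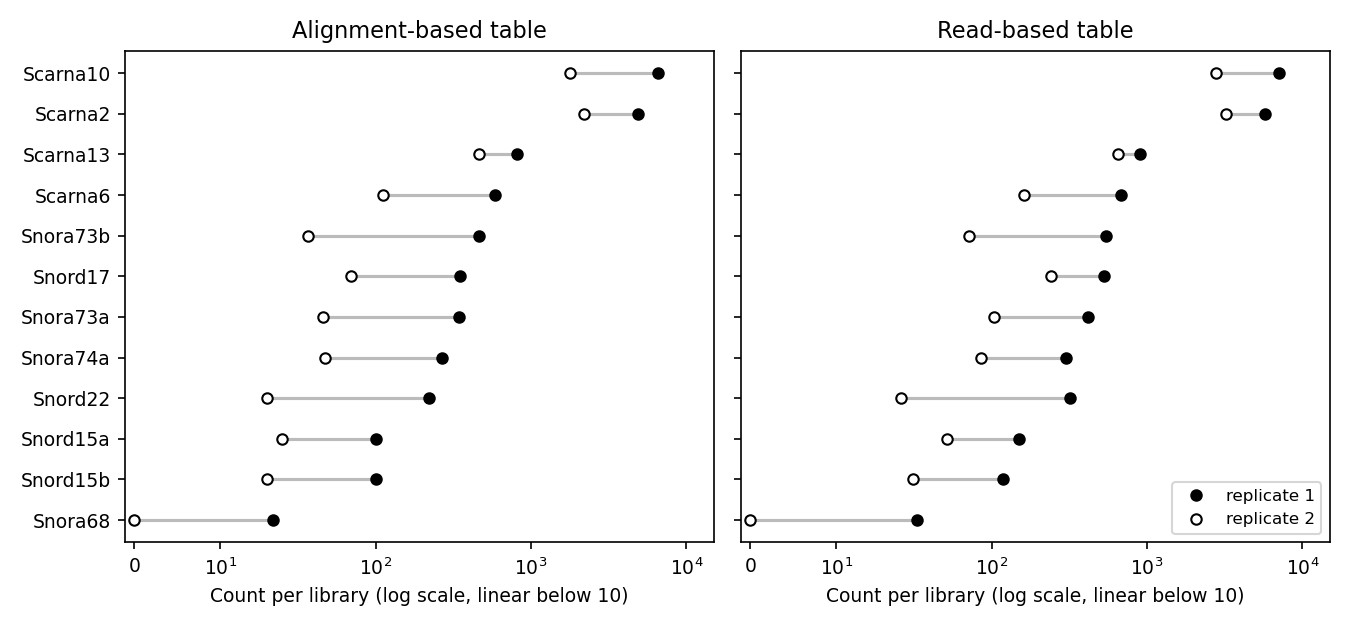
Counts per library (horizontal axis, log scale and linear below 10) of the 12 members with a mean alignment-based count of 10 or more, in the alignment-based (left) and read-based (right) table. Filled points are replicate 1 and open points replicate 2. In both tables every one of the 12 open points lies to the left of its filled point.

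The order of levels depended on the scale. By mean TPM (± SD, n = 2) Scarna10 stood first at 1117 ± 754, followed by Snord15b at 643 ± 498, Snord15a at 586 ± 391, Scarna2 at 541 ± 198, Snora73b at 334 ± 383 and Scarna13 at 293 ± 64. Snora74a stood at 266 ± 234, Snora73a at 265 ± 263, Snora68 at 263 ± 372, Scarna6 at 173 ± 148 and Snord17 at 154 ± 127. The value of Snora68 rests on 22 counts at an effective length of 1.06 bases in replicate 1. In replicate 2 its effective length is 0, so its TPM there is 0 whatever the count. By length-scaled CPM the first were Scarna10 at 558 ± 412, Scarna2 at 376 ± 170, Scarna13 at 103 ± 30.3, Scarna6 at 56.8 ± 51.5 and Snora73b at 51.8 ± 61, and Snord15a and Snord15b fell to 18.4 ± 14.5 and 17.7 ± 15.7. By read-based TPM they were Scarna10 at 427 ± 165, Scarna2 at 254 ± 31, Snord89 at 109 ± 66.6, Scarna13 at 100.3 ± 1.1 and Snord22 at 77.7 ± 76.1. On all 3 scales Scarna10 stood first in both libraries. Scarna10 and Scarna2 did not differ beyond their spread in TPM or length-scaled CPM, since the range of 1 overlaps that of the other. Below Scarna13, among the first 12 members of each order, no neighbours differed beyond the spread between the libraries. In TPM and length-scaled CPM this spread holds the fall in replicate 2 that most of these members share. It therefore does not measure a difference between members within 1 library.

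All members together held 0.738% of gene TPM in replicate 1 and 0.239% in replicate 2, a mean of 0.488% ± 0.353 (SD, n = 2). The share was 0.214% ± 0.119 for Cajal body, 0.138% ± 0.102 for C/D and 0.136% ± 0.133 for H/ACA genes. These spreads hold the shift between the libraries, which the classes share, so they do not measure a difference between classes. Cajal body genes held the largest share in each library, 0.298% and 0.13%. C/D genes held 0.21% and 0.0663% and H/ACA genes 0.23% and 0.0422%, so their order changed between the libraries. By expected counts the members held 0.0621% and 0.0233%, and by read-based TPM 0.214% and 0.175%. The count shares were 0.054% and 0.022% for Cajal body, 0.00323% and 0.000652% for C/D and 0.00481% and 0.00067% for H/ACA genes. The median member was listed at a TPM of 0 in both libraries.

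Several members stood at or near 0 by alignment and well above it by reads. These were chosen after their values had been seen. Snord89 had 142 and 143 read-based counts and 0 and 0 alignment-based counts. Snord118, whose U8 RNA takes part in the maturation of the 5.8S and 28S ribosomal RNAs, had 35 and 93 against 0 and 0. Snora31 had 81 and 139 against 1 and 0, and Snora30, in an intron of Srcap, had 65 and 39 against 1 and 0. Snord104 had 55 and 31 and Snord71, in an intron of Ap1g1, 54 and 40, both against 0 and 0. In all, among the 44 members whose read-based counts averaged 10 or above, 23 were at 0 in both libraries by alignment. Snord118 is 135 bases long with an effective length of 1.42 and 1.30 bases in the alignment-based table. Which table is nearer to the RNA was not tested.

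Members also differed by whether another transcript holds their whole sequence. This was so for 72 of the 150 members, 21 H/ACA, 51 C/D and no Cajal body genes. For 69 of them a transcript of the host held it, and for Snora43, Snora74a and Snora19 a transcript of another gene only. The 69 include 14 identical Snord116 copies. These overlap no exon of another gene at their own place, and other small nucleolar RNA genes share their sequence. Of the 72, 6 (8.33%) had read-based counts in both libraries, against 63 of the other 78 (80.8%). Both groups were of like length, with medians of 94 and 95.5 bases, but of 87 and 104 bases without the Snord116 copies. Among members of 131 bases or more the numbers were 3 of 14 and 25 of 26, and among those of 130 or fewer 3 of 58 and 38 of 52. Within C/D genes they were 3 of 51 and 35 of 48, and within H/ACA genes 3 of 21 and 19 of 21. Without the Snord116 copies they were 6 of 58 (10.3%) and 63 of 75 (84%). In the alignment-based table the numbers were 3 of 72 and 13 of 78. The 3 contained members with alignment-based counts in both libraries were Snora74a, Snord15b and Snord22. The part of such shared sequence in the counts was not tested.

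**Figure D3:**
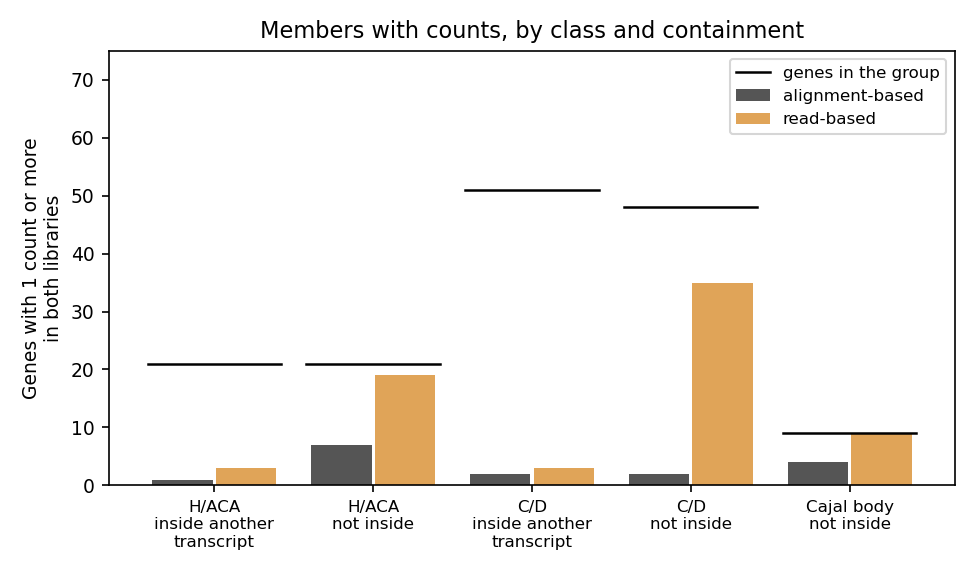
Number of members with 1 count or more in both libraries (vertical axis, genes) by class and by whether the whole sequence lies inside another annotated transcript, for the alignment-based (dark bars) and read-based (light bars) tables. Black lines give the number of genes in each group. For contained H/ACA and C/D genes both bars reach 3 or fewer, and for the others the read-based bars reach 19 of 21 and 35 of 48.

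Host genes do not order the members simply. Of the 150 members 141 lie within another gene. Ribosomal protein genes hold 33 members in 24 hosts, of which 14 had read-based counts in both libraries, and other protein-coding genes hold 57 members in 44 hosts, of which 34 did. Noncoding hosts other than Snhg14 hold 34 members in 21 hosts, of which 13 did, and of the 9 members in no host 8 did. Median host TPM was 28.6 and 38.6 for the ribosomal protein genes and 14.1 and 18.2 for the other protein-coding genes. Members could be at or near 0 in hosts with many counts. Hspa8, a chaperone gene, had 11152 and 11065 counts, while its U14 RNAs Snord14c, Snord14d and Snord14e had 9 and 0, 18 and 0 and 0 and 0 read-based counts. Gas5, a noncoding host, had 1279 and 944 counts, and its 4 members Snord78, Snord80 (both records) and Snord47 together had 10 and 0. All 7 of these gene records have their whole sequence in another transcript. These hosts were named after their values had been seen.

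The Snord116 copies were the largest family. In mouse and human this imprinted cluster is read from the paternal chromosome and is best known in neurons. All 17 copies lie on chromosome 7 in Snhg14, with 4 distinct sequences, of which the one printed for Snord116l1 is shared by 14 copies. A further 16 small nucleolar RNA genes with other names share the common sequence. Each copy had 0 counts in both libraries of both tables. The limit of 3 counts per copy and library covers counting error only. The copies are 94 bases long, with an alignment-based effective length of 0, and a read of the common sequence fits many genes. The 0 is therefore not a measured absence. The host Snhg14 itself had 268 and 452 counts and a TPM of 2.47 and 5.31. Chromosome 7 holds 34 of the 150 members, these copies included.

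Counts of the members were lower in replicate 2 than in replicate 1. All 12 members whose alignment-based counts averaged 10 or above were lower, 10 of them beyond 2-fold, after scaling for library size and composition. Among all 15051 genes with such counts 50.4% were lower, 5.08% beyond 2-fold lower and 3.65% beyond 2-fold higher. The summed counts of the 12 were 14757 and 4818, a log2 ratio of -1.42 (95% counting interval -1.47 to -1.37), replicate 2 over replicate 1. The median log2 ratio was -2.15 over the 12 members. It was -2.10 for the 4 C/D genes and -1.32 for the 4 Cajal body genes. For the 4 H/ACA genes it was -2.69 with replicate 2 of Snora68 set at 3 counts. All genes tested had a median of -0.00310.

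By gene, Scarna13 differed least, at -0.62 on the log2 scale (counting interval -0.79 to -0.45), and Scarna2 followed at -0.97 (-1.04 to -0.89). Scarna10 stood at -1.68 (-1.75 to -1.60) and Scarna6 at -2.19 (-2.50 to -1.90). Among those counted in both libraries the largest differences were -3.43 (-3.98 to -2.97) for Snora73b, -3.24 (-4.01 to -2.61) for Snord22 and -2.70 (-3.19 to -2.27) for Snora73a. Snora68, at 22 and 0 counts, was 6.4-fold lower with replicate 2 set at the limit of 3 counts. Its counting interval has no lower end and an upper end of -2.26. Other members were Snora74a at -2.31, Snord17 at -2.11, Snord15b at -2.10 and Snord15a at -1.80.

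Read-based counts gave the same direction for most members. Of 44 whose read-based counts averaged 10 or above, 41 were lower in replicate 2, against 50.1% of 23652 genes, and 21 were beyond 2-fold lower, against 5.22%. The median was -0.98. On the scale of read-based TPM, an alternative chosen after seeing the data, 24 of the 44 were lower and 20 higher, with a median of -0.085. All genes tested shifted by a median of 0.714 on that scale, and 9.09% of them were lower. Scarna13, for example, had a read-based TPM of 99.6 and 101.1 with fewer counts in replicate 2. The 3 that were higher were Snord118 at 1.36 (0.80 to 1.98), Snora31 at 0.74 (0.34 to 1.15) and Snord13 at 0.49 (-0.58 to 1.65). Of these, 1 was beyond 2-fold higher, against 6.69% of genes. The interval of Snord13 holds 0, so this difference was not detectable at this depth. Snord89, the C/D gene with the highest mean read-based TPM, although Snord22 and Snord17 stood above it in replicate 1, was at -0.03 (-0.37 to 0.32). Snora68 had 33 and 0 counts, with an upper interval end of -3.12, and Snord14d had 18 and 0, with an upper end of -2.17.

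**Figure D4:**
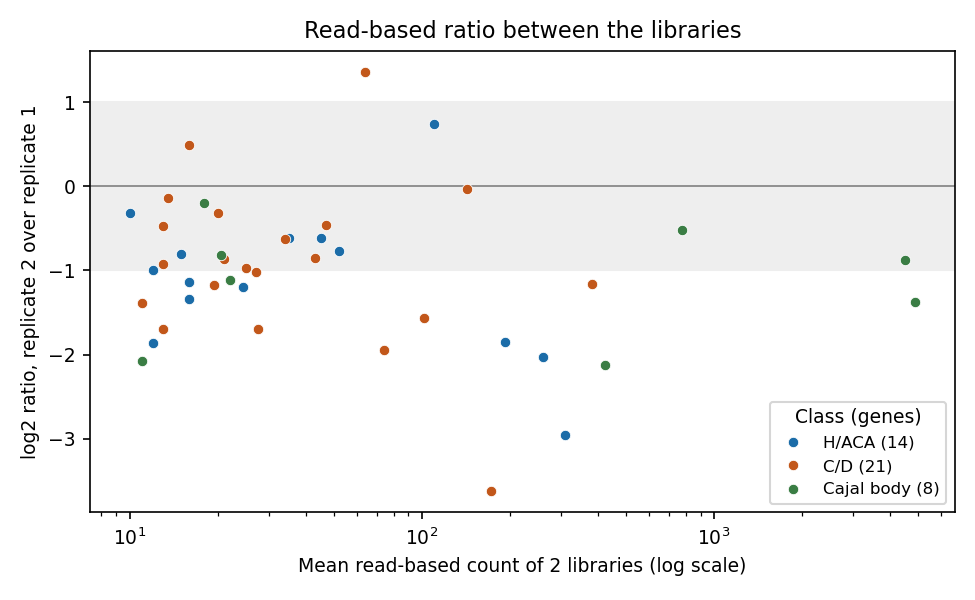
Log2 ratio of read-based counts, replicate 2 over replicate 1 (vertical axis), against the mean count of 2 libraries (horizontal axis, log scale) for the 43 members with a mean of 10 or more and a count in both libraries, 1 point per gene, coloured by class. The grey band marks ratios within 2-fold. Of the 43 points 3 lie above 0, and the highest, Snord118, stands at 1.36.

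The host genes and other short RNAs were then set beside the members. The 9 host genes of the 12 members had a median log2 ratio of -0.13 in the alignment-based table. No count minimum was set for them, and the lowest ratios rest on few counts. These were Gm28285 (1 and 0 counts, -1.39) and Snhg10 (3 and 1 counts, -1.03). The 29 host genes of the read-based set, with alignment-based counts averaging 10 or above, stood at 0.09. The 26 other small nucleolar and Cajal body RNA genes with such counts stood at a median of -1.03, and 13 of them (50%) were beyond 2-fold lower. Among other genes of 131 to 199 bases the median was -0.34 (34 genes) with 38.2% beyond 2-fold lower, and among those of 200 to 414 bases it was -0.09 (149 genes) with 19.5%. For 32 small nuclear RNA genes it was -0.34 with 40.6%. They share the lowest (-8.28) and highest (10.6) ratio with the 34 genes of 131 to 199 bases. Both also have 26 genes lower, 13 beyond 2-fold lower and 3 beyond 2-fold higher. The sets thus appear to be largely the same genes and count as 1 group, not as separate groups. Falls beyond 2-fold were thus more frequent than the 5.08% of all genes in these short RNAs as well. Rises were not rare in all of them. Genes beyond 2-fold higher numbered 0 of the 26, 3 of the 34 and 30 of the 149, where 29 were lower. By read-based counts, 55 of 460 other genes of 64 to 130 bases were beyond 2-fold lower and 117 higher. Among 110 other genes of 131 to 199 bases 21 were lower and 12 higher, and among 707 of 200 to 414 bases 102 and 99. Of 133 other small nucleolar and Cajal body RNA genes 35 (26.3%) were beyond 2-fold lower and 2 higher, with a median of -0.37. The replicates also differ in the RNA input named above and in the share of mitochondrial counts. With 1 library of each input, input and replicate cannot be told apart, and the part of either value in the lower counts was not tested. In bulk RNA, fewer cells of a kind and less RNA per cell cannot be told apart either.

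RNA of the genes for the proteins that build these particles was measured as well. The list holds 33 such genes, of which 24 reached 1 TPM in each library and 3 reached 10: Nop56, Tgs1, which adds the trimethyl cap, and Xrn2, an exonuclease that trims 5′ ends. Among the C/D core proteins, the methyltransferase fibrillarin (Fbl) stood at 4.60 ± 0.615, Nop56 at 16.4 ± 2.88, Nop58 at 9.12 ± 2.96 and Snu13, which binds the kink turn, at 8.54 ± 4.58. Among the H/ACA core proteins, the pseudouridine synthase dyskerin (Dkc1) stood at 3.51 ± 0.615, Nhp2 at 3.57 ± 0.0141, Nop10 at 1.18 ± 0.679 and Gar1 at 4.81 ± 1.34. Coil, the scaffold protein coilin of Cajal bodies, stood at 1.14 ± 0.248. Values are mean TPM ± SD (n = 2). Of the 33 genes 1 differed beyond 2-fold between the libraries, Wrap53, which carries Cajal body RNAs to that body, at a log2 ratio of -1.14. The median of the list was 0.10.

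Of the related RNAs outside the rule some were lower in replicate 2 and others were near level. Terc, the H/ACA-like RNA of telomerase, had 48 and 15 counts, a log2 ratio of -1.45. Rnu3a, the U3 RNA, has a pair of overlapping records, of which 1 had 135 and 22 alignment-based counts and 0 read-based counts, and the other 0 and then 402 and 299. Each of the 4 Rnu3b copies likewise has a pair of records, with 66 and 87 and 122 and 56 counts per copy. The copies hold equal values, so the split of U3 reads among them is uncertain. Rmrp, the RNA of ribonuclease MRP, which cuts ribosomal RNA precursors, has a pair of overlapping records. One had 36098 and 2025 counts, a log2 ratio of -3.96, beyond that of every member counted in both libraries, and the other 151853 and 77294, a ratio of -0.78. Log2 ratios were -0.11 for Rpph1, of ribonuclease P, and -0.23 for Rn7sk. Rmrp, Rpph1 and Rn7sk were named after their values had been seen.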

How the data were processed

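Total RNA depleted of ribosomal RNA was sequenced from the nucleoplasm in 2 libraries of 1 group. Per the file headers, the deposited tables use mm10 and GENCODE M21, and the authors made one kind (gene level, called alignment-based here) from alignments to the transcriptome and the other (transcript level, called read-based) from reads. For tool names, versions, trimming and strand, the sources used here give nothing. The alignment-based tables deposited by the authors hold estimated (expected) counts, and the read-based ones hold estimated counts per transcript. The deposited TPM and FPKM are values that the authors divided by effective length, with TPM scaled to a constant sum and FPKM to the fragment number. The deposited credibility bounds of TPM are a score of estimation error and were not used for comparisons.

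Members were found by symbol and matched to GENCODE M21 for position, host, exon overlap and sequence. All 55536 gene rows matched, but 86 genes lack a read-based transcript. The 26345 rows that name no gene (tRNA, spike-in and phage, 1.1% and 0.267% of counts) were left out of sums. Counts were rounded, and gene counts summed to 23846021 and 20675305. With 1 group no test between groups and no p-value was possible, and all values are descriptions. Ratios are of counts scaled by TMM factors (edgeR 4.0.16) with a prior count of 0.5, for members whose counts average at least 10, and have 95% intervals by the exact Clopper-Pearson method. Ratio calculations were tested on simulated data. The members and lists were chosen with earlier results of these data known. Genes named are the 6 highest members of each class by TPM and by count, the 4 largest ratios in each direction, the shortest and longest of each class, up to 4 with counts but a TPM of 0, and the core proteins and related RNAs. Others are said to be chosen after their values were seen. Alternatives were size factors of DESeq2 1.42.0, library size, other count minimums, prior counts and pseudocounts, the read-based table and its TPM, each library alone, and leaving out overlapping or contained members. Scripts ran in Python 3.11.15 (pandas 2.3.3, numpy 2.4.6, Biopython 1.88, matplotlib 3.10.9, scipy 1.17.1) and R 4.3.3.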

Additional observations from a re-analysis of the deposited data

How the results depend on the processing

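The count of members with counts in both libraries, 16, was within 1.5 times at a minimum of 10 counts (11) and with any expected count above 0 (16). It was 69 in the read-based table, 63 there without members contained in another transcript (an alternative chosen after seeing the data), and 7 without members that overlap an exon of another gene. With either library alone it ranged from 16 to 30. For H/ACA genes the main count of 8 became 3 at 10 counts, 22 read-based, 19 read-based without contained members and 3 without exon overlap, with a range of 8 to 21 over single libraries. For C/D genes the main count of 4 became 38, 35 and 2 under the read-based, contained and exon alternatives, with 4 in either library alone. For Cajal body genes the main count of 4 became 9, 9 and 2, with a range of 4 to 5.

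The share of TPM, 0.488%, was 0.0427% by counts, and ranged from 0.239% to 0.738% over single libraries. The median log2(TPM + 0.1) of members, -3.32, is that of a TPM of 0. It was 0 at a pseudocount of 1, -6.64 at 0.01 and -1.54 in the read-based table. It reversed to 7.24 when only members with counts in both libraries were kept, a set chosen by the same values. The difference in median length, 98.5 bases, was 21 in the read-based table, and ranged from 52.5 to 98.5 over single libraries.

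The median log2 ratio, -2.15, was -1.95 with exon-overlapping members left out and likewise with contained members left out, -1.95 with no filter, -1.94 by TPM (11 members, as Snord22 has no TPM), -0.98 in the read-based table -0.88 there without contained members and -0.085 by read-based TPM, on which all genes shifted by 0.714. The count beyond 2-fold, 10, was 27 of 30 with no filter, 22 of 44 read-based, 17 of 39 read-based without contained members, 6 of 8 without contained members and 3 of 4 without exon overlap. With no filter, counts of 1 and 0, as for Snora30, already give -1.39 through the prior count. The median and count with no filter therefore cannot tell a difference from counting error, and no share of all genes was taken there. Of 114 values for the 12 single members under these alternatives 113 kept the direction, and Scarna13 reversed to 0.022 by read-based TPM. Many of the 114 could not differ, since a count minimum or leaving members out does not change the ratio of a member that is kept. Scarna6, for example, stood at -2.192 under each such setting of the alignment-based counts. The 113 are therefore not separate checks. With 2 libraries of unequal input, no member's difference has a replicate check, and members of 130 bases or fewer (131 in replicate 2) cannot be read by the alignment-based TPM.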
